A study of Sus scrofa with 2 samples.

Results

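The TRPM (melastatin) genes form a family of 8 cation channels, TRPM1 to TRPM8, and their RNA levels are described here in the stria vascularis (SV), the epithelium of the cochlear lateral wall that makes endolymph. Members were found by gene symbol in the deposited expression table. Of the 8 genes, 7 had a feature among 27622 features, each with a single feature, and TRPM5 is not analysed here. The pigs were of the Rongchang breed, in which the recessive r allele arose spontaneously and carries short insertions upstream of the M exon of MITF, the first exon of the melanocyte isoform of this transcription factor. RNA-seq compared 1 library of genotype MITF R/r with 1 library of genotype MITF r/r, to find transcripts that differ in homozygotes. The control was heterozygous and thus carried 1 r allele itself. The sample labels give the age of both as postnatal day 1, whereas the study's text places the RNA-seq at an embryonic stage, and the age of these libraries was not settled. The number of animals behind each library is not given in the sources used here.

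TRPM proteins are tetrameric cation channels that differ in what opens them and in which ions they pass. TRPM1 is a gene of pigment cells and of the ON bipolar cells of the retina, and its promoter is a known target of MITF. TRPM6 and TRPM7 carry a kinase domain and pass magnesium, TRPM4 and TRPM5 are opened by intracellular calcium and pass monovalent cations, TRPM2 is opened by ADP-ribose under oxidative stress, TRPM3 responds to heat and to pregnenolone sulfate, and TRPM8 to cold and menthol. The SV holds marginal, intermediate and basal cells, of which the intermediate cells are melanocytes, and the dissected lateral wall also holds fibrocytes, vessels and adjoining bone.

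Expression was given as RPKM, a read count scaled to the length of a gene's exons and to the depth of the library, so that levels can be ordered between genes. The numbers of reads behind these values were worked out from the values themselves. The R/r library had 15829244 reads and the r/r library 14258672 reads, so that 1 read on a model of 1000 bases was worth 0.0632 and 0.0701 RPKM. For each gene the lowest whole numbers that yield both values are given. The real numbers can be the same multiple of both, which would narrow the intervals. All intervals are 95% intervals that cover counting error only (exact Poisson for a level, exact Clopper-Pearson for a ratio). With 1 library per genotype the differences had no replicate check, and no p-value is given. Ratios are given on the log2 scale as RPKM in r/r divided by RPKM in R/r, with no pseudocount.

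As a check of the labels, the 3 features named MITF were lower in the r/r library, with log2 ratios from -0.51 to -0.45 and intervals that stayed below 0. The most abundant of them had 51.7 RPKM in R/r and 37.8 RPKM in r/r. The study itself points out that a gene-level RPKM mixes the melanocyte isoform with others. These values are thus no direct test of the genotype.

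A ratio was compared with the threshold of 2-fold for features above 0 in both libraries with at least 1 RPKM in at least 1 of them. Of the TRPM genes, 5 met this condition. Among these 5 members 1, TRPM1, was at least 2-fold lower in r/r, and 0 were at least 2-fold higher. Over all 16331 features that met the condition, 360 (2.2%) were at least 2-fold lower and 291 (1.78%) at least 2-fold higher. TRPM1 was also the 1 member whose interval lay wholly below a 2-fold decrease, and 0 members had an interval wholly above a 2-fold increase, against 58 (0.355%) and 48 (0.294%) of all features. With so few members these shares describe the family and support nothing about it as a group. The median log2 ratio was -0.06 over the 5 members and -0.02 over all features. Neither sign was firm, as the TRPM median was 0.001 with no minimum and with a minimum of 5 RPKM, and that of all features was 0.03 with the libraries scaled to equal medians.

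TRPM1 (ENSSSCG00000004843) was well expressed in the R/r SV, at 22.7 RPKM (21.6 to 23.8) from 1776 reads. In the r/r SV it had 0.0142 RPKM (0.000359 to 0.0790) from 1 read. The libraries therefore stood far apart at this gene, and an equal level would have given 1599.8 reads in r/r. The log2 ratio was -10.64 (-15.95 to -8.16), which is 1599.8-fold lower in r/r with an interval from 287-fold to 63223-fold. This ratio rests on the single read in r/r and depends on the pseudocount, being -7.64 with 0.1 RPKM added to both values and -4.55 with 1 RPKM added. Fewer cells with TRPM1 RNA and less of this RNA per cell cannot be told apart in such bulk RNA.

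Among the 16331 features compared, 0 had a lower log2 ratio than TRPM1. Of 3164 compared features with at least 1000 reads in R/r by these lowest numbers, 12 were at least 2-fold lower in r/r, and 2, TRPM1 and DCT, were at least 32-fold lower. TRPM1 was the 1 feature of these with no more than 10 reads in r/r. This set was chosen by reads in R/r alone, the library where TRPM1 and DCT were high. Its counts thus describe the set and support nothing further. Outside the ratios, 49 features had at least 1 RPKM in R/r and were listed at 0 in r/r. By these lowest numbers, their median was 2 reads in R/r, and the most was 233 reads, for Novel00795, a region outside the gene annotation. The real numbers can be higher, since for these features only the R/r value fixes them. In the other direction, 36 features had at least 1 RPKM in r/r and were listed at 0 in R/r.

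The study designed a primer pair for porcine TRPM1 transcripts, shown here because TRPM1 was the 1 member at least 2-fold apart. No genome of the files' build was given, so the position of the primers in the gene is not stated.
TRPM1 forward primer: tgccatgaaactgctgacctat
TRPM1 reverse primer: ttttcctcatcctcagccttcc
Each primer has 22 bases.

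**Figure D1:**
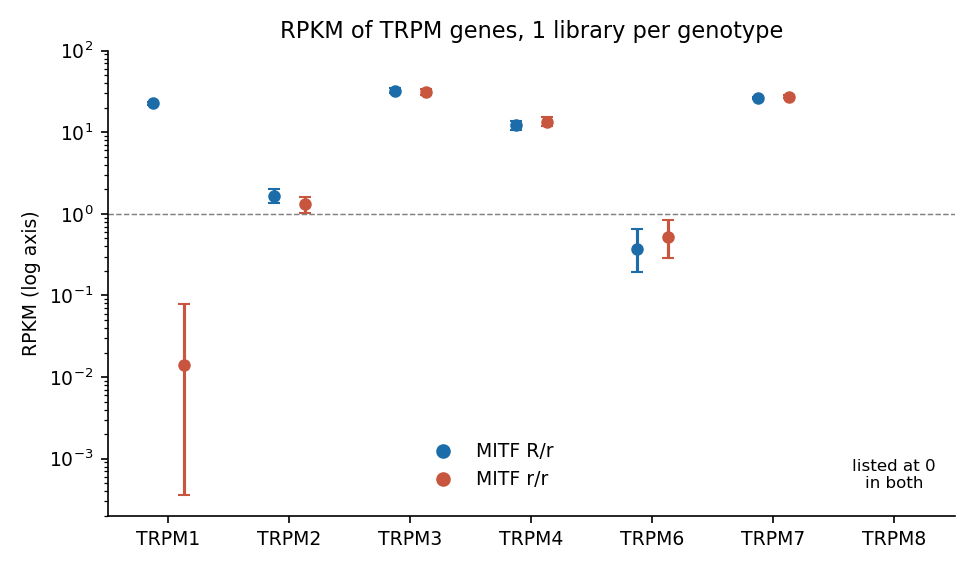
RPKM (log axis) of the TRPM genes in the MITF R/r library (blue) and the MITF r/r library (red), with exact Poisson 95% intervals as bars and the minimum of 1 RPKM as a dashed line. TRPM1 stands at 22.7 RPKM in R/r and 0.0142 RPKM in r/r, whereas the intervals of each other expressed member overlap between the libraries.

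TRPM7 and TRPM6, the channel-kinases that carry magnesium into cells, differed in level far more than in ratio. TRPM7 (ENSSSCG00000004636) had 26.3 RPKM (25.4 to 27.3) in R/r and 27.5 RPKM (26.5 to 28.5) in r/r, from 2908 and 2737 reads. Its log2 ratio was 0.06 (-0.01 to 0.14), an r/r level between 99.1% and 110.1% of that in R/r. The interval held 0 with the values as deposited, with upper-quartile scaling and as TPM (RPKM scaled to an equal sum in both libraries), but not with the libraries scaled to equal medians, where the ratio was 0.11 (0.04 to 0.19). TRPM6 (ENSSSCG00000005269), the channel of epithelia that absorb magnesium, had 0.373 RPKM in R/r and 0.518 RPKM in r/r, from 12 and 15 reads, below the minimum in both. Its log2 ratio of 0.47 had an interval from -0.72 to 1.70, so that a difference was not detectable at this depth.

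Of 20 other genes of magnesium transport, 16 were found and 14 met the condition, and 0 of these 14 were 2-fold apart. The median log2 ratio was -0.09, beside -0.02 for all features. MAGT1, the most abundant, had 232 RPKM in R/r and 228 RPKM in r/r. CLDN19, a claudin of magnesium-reabsorbing epithelia, was lowest at -0.72 (-2.44 to 0.84) from 11 and 6 reads, and EGF, whose product stimulates TRPM6, was highest at 0.13 (-0.02 to 0.27). CLDN16 was listed at 0 in both.

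TRPM4 (ENSSSCG00000022672), the calcium-activated channel for monovalent cations, was expressed at 12.1 RPKM (10.6 to 13.8) in R/r and 13.5 RPKM (11.8 to 15.4) in r/r. It rested on 225 and 226 reads. The log2 ratio was 0.16 (-0.12 to 0.43). The interval held 0, so that the libraries did not differ beyond counting error at this gene. Its relative TRPM5, a channel of taste cells, is not analysed here.

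TRPM2 (ENSSSCG00000023762), opened by ADP-ribose and calcium, had low levels of 1.67 RPKM (1.37 to 2.01) in R/r and 1.31 RPKM (1.03 to 1.63) in r/r, from 112 and 79 reads. The log2 ratio was -0.35 (-0.79 to 0.08). Of the members within 2-fold and past the minimum it was the farthest from 0, and its interval held 0.

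A list of partners of TRPM4 and TRPM2 took in the sulfonylurea receptors, potassium channels of the same complexes and the enzymes that make or split ADP-ribose. It had 10 genes, 8 found and 7 past the minimum, with 0 of them 2-fold apart and a median of -0.04. This median lay at 0.01 when the libraries were scaled to equal medians. NUDT9, an ADP-ribose hydrolase, was the most abundant at 67.7 RPKM in R/r and 53.0 RPKM in r/r, a log2 ratio of -0.35 (-0.46 to -0.24). Past the minimum, KCNJ8, a pore of ATP-sensitive potassium channels, was lowest at -0.41 (-1.39 to 0.54). PARG, which splits poly-ADP-ribose, was the highest of these at 0.14 (-0.03 to 0.31).

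TRPM3 (ENSSSCG00000005257) was the most abundant member in both libraries, at 32.6 RPKM (30.5 to 34.8) in R/r and 31.2 RPKM (29.0 to 33.5) in r/r, from 885 and 764 reads. Its log2 ratio was -0.06 (-0.20 to 0.08). In RefSeq annotation of Sscrofa11.1, a later assembly than that of the files, the gene of the microRNA miR-204 lies within TRPM3. The feature named for its precursor, ssc-mir-204 (ENSSSCG00000019666), had 38.8 RPKM in R/r and 39.2 RPKM in r/r. These values came from 67 and 61 reads on a model of 109 bases. The log2 ratio was 0.02 (-0.51 to 0.54), so that host gene and precursor both lay near 0. Reads of the precursor and reads of unspliced TRPM3 RNA cannot be told apart in this feature, which is no measure of the mature microRNA.

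TRPM8 (ENSSSCG00000016314), the cold and menthol receptor of sensory neurons, was listed at 0 in both libraries and has no ratio. The length of its exon model is not known from the values. On a model of 1000 bases, 3 reads are worth 0.190 RPKM in R/r and 0.210 RPKM in r/r, and less on a longer one. This floor of 3 reads lies below the upper limit of the exact Poisson interval for a count of 0. A somewhat higher level is thus not excluded.

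The members could be placed in order within each library. In R/r the order was TRPM3, TRPM7, TRPM1, TRPM4, TRPM2 and TRPM6, and in r/r it was TRPM3, TRPM7, TRPM4, TRPM2, TRPM6 and TRPM1. No neighbouring pair in either order had overlapping intervals of counting error. The narrowest step was from TRPM7 to TRPM1 in R/r, 1.16 times, and in r/r it was from TRPM3 to TRPM7, 1.14 times. Apart from TRPM1, which went from place 3 to place 6, the members had the same sequence in both libraries.

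The summed level of the family was 95.7 RPKM in R/r and 74.1 RPKM in r/r, which is 77.4% of the R/r value. Without TRPM1 the sums were 73.0 and 74.1 RPKM, or 101% of the R/r value. TRPM1 made up 23.7% of the TRPM sum in R/r and 0.0191% in r/r. TRPM3 held 34.0% and 42.1%, and TRPM7 27.5% and 37.1%.

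The other TRP channels offer a view of related genes. The list held 18 genes of the canonical (TRPC), vanilloid (TRPV), ankyrin (TRPA1), mucolipin (MCOLN) and polycystin (PKD2) families, all found, of which 7 met the condition. Of these 7 genes, 0 were at least 2-fold apart, with a median of -0.66 beside -0.02 for all features. As TPM, 1 of them, PKD2L2, was past 2-fold at -1.02. With a minimum of 5 RPKM, which leaves 4 of them, the median was -0.14. The remaining 11 had no more than 30 reads in either library.

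TRPC1, the most abundant of the other TRP channels, had 29.5 RPKM in R/r and 27.5 RPKM in r/r, between TRPM3 and TRPM7 in R/r and close to TRPM7 in r/r. Among the genes past the minimum the lowest ratio was that of PKD2L2, -0.99 (-2.86 to 0.66), from 11 and 5 reads. The highest of these was that of PKD2, a channel of primary cilia, at 0.01 (-0.18 to 0.19), with 19.3 RPKM in R/r and 19.4 RPKM in r/r. The intervals of 3 of the 7 genes lay wholly below 0, against 14.5% of all features, a criterion taken up after the values were seen. With so few genes this share describes the list only. Also named after their values were seen, they were TRPV2 at -0.93 (-1.43 to -0.44), MCOLN2 at -0.66 (-0.94 to -0.38) and MCOLN1 at -0.18 (-0.35 to -0.002). With the libraries scaled to equal medians the ratio of MCOLN1 was -0.13 (-0.30 to 0.05), and its interval held 0, as it did with upper-quartile scaling but not as TPM. Among these and the TRPM genes, 25 in all, TRPM1 ranked 4 by level in R/r and 20 in r/r, where it was the lowest of those above 0.

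**Figure D2:**
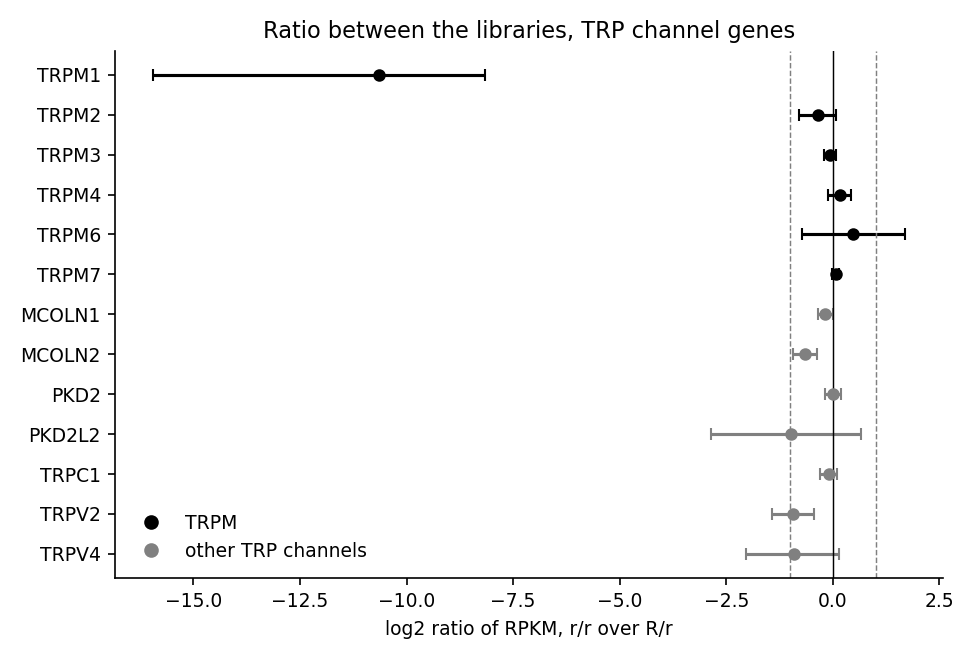
Log2 ratio of RPKM, r/r over R/r, for TRPM genes (black) and for the other TRP channels past the minimum (grey), with exact 95% intervals of counting error as bars, 0 as a solid line and 2-fold as dashed lines. TRPM1 lies at -10.64, while every other gene drawn lies between -0.99 and 0.47.

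TRPM1 was then set beside the genes of melanocytes. Of 18 genes on this list, all found, 15 met the condition, 9 were at least 2-fold lower in r/r and 0 at least 2-fold higher, with a median of -1.75. This median was -2.54 with a minimum of 5 RPKM and -2.50 with 0.1 RPKM added to both values. Over all features compared, 2.2% were at least 2-fold lower and 1.78% at least 2-fold higher, with a median of -0.02. The list was chosen with earlier results of these data known. The counts from it thus describe the list and support nothing further. The summed level of the melanocyte list was 434 RPKM in R/r and 117 RPKM in r/r. DCT, an enzyme of melanin synthesis and the most abundant, had 171 RPKM in R/r and 1.19 RPKM in r/r. MLANA was listed at 0 in r/r and MC1R at 0 in R/r, and TYRP1 had 1 read in each library.

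In R/r the level of TRPM1 lay within the range of these genes, at 0.837 times SLC45A2, 1.13 times KCNJ10 and 0.132 times DCT. In r/r it lay apart from most of them. TRPM1 retained 0.0625% (0.00158 to 0.349) of its R/r level. DCT, the lowest of the list among genes with a ratio, retained 0.695% (0.546 to 0.872) from 11976 and 75 reads. The interval of TRPM1 lay below that of 14 of the 15 genes, and below that of 8 of the 9 at least 2-fold lower. The exception in both counts was KCNJ13, a potassium channel of pigment epithelia, with 1.19% (0.323 to 3.07) from 373 and 4 reads.

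The melanocyte genes themselves were spread widely, as these examples, named after their values were seen, show. TYR, the rate-limiting enzyme of melanin synthesis, had 11.8 RPKM in R/r and 0.176 RPKM in r/r, and the endothelin receptor EDNRB retained 9.87% (7.11 to 13.4). KCNJ10, the potassium channel of intermediate cells, listed in the table under its older name KIR1.2, retained 29.8% (23.6 to 37.4). KIT, the receptor of melanoblasts, had 101% (96.2 to 107), and OCA2 had the highest log2 ratio of the list past the minimum, 0.04 (-0.78 to 0.87). Beside the genes of the list with a ratio, which ran from below 1% to about the full R/r level, TRPM1 had the lowest retained share. MLANA, listed at 0 in r/r, has no ratio.

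**Figure D3:**
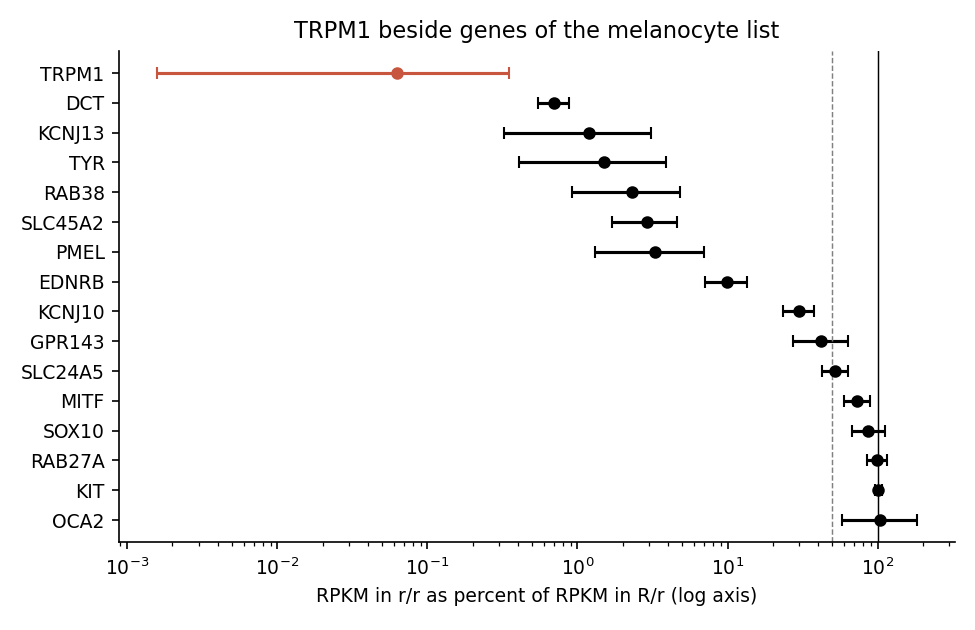
RPKM in r/r as a percent of RPKM in R/r (log axis) for TRPM1 (red) and the melanocyte genes past the minimum (black), with exact 95% intervals of counting error as bars, 100% as a solid line and 50% as a dashed line. TRPM1 is at 0.0625%, followed by DCT at 0.695% and KCNJ13 at 1.19%.

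Among markers of other cells of the dissected tissue some were lower in r/r, as TRPM1 was, and others were higher, and their part in its ratio was not tested. The bone list had 6 genes past the minimum of 6, 2 of them at least 2-fold lower, against 2.2% of all features. Their median was -0.70, beside -0.02 for all features. The list is short and was chosen with earlier results of these data known, so these values describe the list only. With a minimum of 5 RPKM 1 of the bone genes was at least 2-fold lower. The sum of the list was 588 RPKM in R/r and 360 RPKM in r/r, and IBSP was the most abundant at 431 and 268 RPKM. Bone lies beside the lateral wall. Its lowest gene, MEPE, had a log2 ratio of -3.14 (-4.83 to -1.82), from 49 reads in R/r and 5 reads in r/r. Its highest, ALPL, had -0.41 (-0.67 to -0.15).

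Of the Schwann cell genes described here, PRX had 18.7 RPKM in R/r and 20.1 RPKM in r/r, a log2 ratio of 0.11 (-0.01 to 0.22). CDH19, an adhesion gene of the Schwann cell lineage, had 0.874 RPKM from 32 reads in R/r and was listed at 0 in r/r. The members of this list thus differed, and no sum or median is given for it.

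Of 7 marginal cell genes 5 were found and past the minimum, with 0 at least 2-fold apart and a median of -0.31. Their sum was 1586 RPKM in R/r and 1168 RPKM in r/r, and ATP1B2, the most abundant and the lowest in ratio, had 915 and 522 RPKM. SLC12A2 went the other way, with 312 and 334 RPKM and a log2 ratio of 0.10 (0.05 to 0.15). Of 7 genes of basal cells and fibrocytes 4 were found, with 0 at least 2-fold apart and a median of -0.15. Their sum was 7893 RPKM in R/r and 5877 RPKM in r/r, led by COCH at 6826 and 4914 RPKM. TBX18 was higher in r/r, with 172 and 205 RPKM and a log2 ratio of 0.25 (0.22 to 0.29).

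Macrophage and erythroid markers had higher summed levels than neuronal markers. All 6 macrophage genes were found and 5 met the condition, with a median of -0.12 and sums of 35.4 and 31.1 RPKM, led by C1QA at 12.3 and 11.2 RPKM. CSF1R was the lowest of the 5 at -0.47 (-0.70 to -0.24) and PTPRC the highest at -0.03 (-0.40 to 0.34). Of 4 erythroid genes 3 were found, with a median of -0.28 and sums of 51.8 and 44.4 RPKM, led by ALAS2 at 26.0 and 21.1 RPKM, with the highest ratio in AHSP, -0.08 (-0.59 to 0.42). In both lists 0 genes were at least 2-fold apart.

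Of 6 neuronal genes, all found, only STMN2 met the condition, at 2.60 RPKM in R/r and 1.41 RPKM in r/r with a log2 ratio of -0.88 (-1.63 to -0.16), and the list summed to 3.41 and 3.11 RPKM. Others, below the minimum, went the opposite way. NEFL had 3 reads in R/r and 35 reads in r/r, a log2 ratio of 3.70 (2.03 to 6.04), and SYT1 had 27 and 40 reads, a ratio of 0.72 (-0.02 to 1.48).

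The proteins that work with TRPM1 in retinal bipolar cells were also looked up, since TRPM1 is best known from there. Of 9 genes 8 were found, 4 met the condition, 0 were at least 2-fold apart and the median was 0.21. The metabotropic glutamate receptor GRM6, which closes TRPM1 in the retina, had 0 reads in R/r and 1 read in r/r. NYX had 0.220 RPKM in R/r and 0.245 RPKM in r/r, GPR179 had 0.161 and 0.137 RPKM, and LRIT3 had 1 and 2 reads. The G-protein regulator RGS7 had 10.9 and 11.3 RPKM and GNB5, the most abundant of the list, had 11.9 and 12.7 RPKM. The highest ratio past the minimum, 0.47 (-1.74 to 2.81), was that of RGS11, from 4 and 5 reads. Of this set the receptor and its scaffold were thus near 0 in a tissue with 22.7 RPKM of TRPM1 in R/r, whereas RGS7 and GNB5, which other cells also use, were expressed.

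Other routes of calcium entry gave a list of 12 genes, of which 9 were found and met the condition. Among these 9 genes 0 were at least 2-fold apart, with a median of -0.20. P2RX2, an ATP-gated channel and the most abundant, had 59.5 RPKM in R/r and 51.7 RPKM in r/r. The lowest was the calcium channel CACNA1D at -0.30 (-0.50 to -0.09) and the highest ORAI2, a store-operated channel, at 0.13 (0.002 to 0.25).

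The genes around TRPM1 were compared next, in the gene order of RefSeq for Sscrofa11.1. Of up to 5 named protein-coding genes on each side, 8 met the condition and 0 were 2-fold apart. KLF13, next to it on one side, had 26.4 RPKM in R/r and 23.4 RPKM in r/r, a log2 ratio of -0.17 (-0.26 to -0.08). MTMR10, next to it on the other, had 28.5 and 27.8 RPKM, a ratio of -0.03 (-0.11 to 0.05). The others ranged from -0.36 for MCEE to 0.20 for FAN1. KLF13 and MTMR10 had R/r levels near that of TRPM1 and did not share its ratio.

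**Figure D4:**
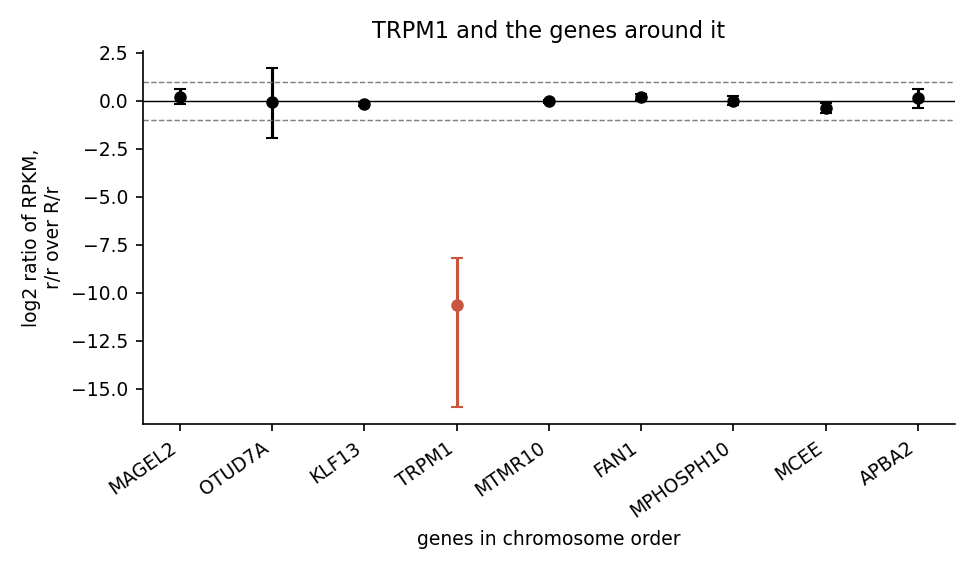
Log2 ratio of RPKM, r/r over R/r, for TRPM1 (red) and the named protein-coding genes past the minimum around it (black), in chromosome order without distances, with exact 95% intervals of counting error as bars, 0 as a solid line and 2-fold as dashed lines. The neighbours lie between -0.36 and 0.20 and TRPM1 at -10.64.

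The neighbours of the other members were likewise within 2-fold where they met the condition. Next to TRPM7 lay SPPL2A at 0.08 (-0.04 to 0.21) and USP50 at 0.15 (-0.36 to 0.66). KLF9 beside TRPM3 was at -0.12 (-0.18 to -0.06), and HRC beside TRPM4 at 0.28 (-0.04 to 0.60). Over up to 10 neighbours per member, the lowest ratio past the minimum was that of ANXA1 near TRPM6, -0.79 (-0.83 to -0.75), which had 523 RPKM in R/r and 303 RPKM in r/r, with TRPM6 itself at 0.47 (-0.72 to 1.70).

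The features with values most like those of TRPM1 were sought by Euclidean distance of log2(RPKM + 0.1) over the 2 libraries. The nearest was CRYBB2, a lens crystallin gene, with 21.5 RPKM from 35 reads in R/r, listed at 0 in r/r, at a distance of 0.207. TMP-SLA-5, a swine MHC class I gene with close relatives that may share its reads, followed at 0.602, with 17.9 RPKM from 325 reads in R/r and 0.0611 RPKM from 1 read in r/r. MLANA, a melanosome gene, came next at 0.929, with 12.0 RPKM in R/r from 4 reads or a multiple of them. KCNJ13 was at 1.43 and Novel00795, a region outside the gene annotation with 7.58 RPKM in R/r and listed at 0 in r/r, at 1.58. The R/r levels of these features ran from 7.58 to 21.5 RPKM, and a likeness over 2 libraries says no more than these values.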

How the data were processed

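RNA of the dissected lateral wall was sequenced in 1 MITF R/r and 1 MITF r/r library. The authors aligned the reads to Sscrofa10.2 with TopHat2 2.0.7, per the submitters' processing notes, and deposited 1 RPKM value per feature and library. The counting program is not given in the sources used here. The deposited table holds 2 further columns without headings, with the authors' own differences and ratios for some genes, which were not used.

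Features were named from the symbol column (16376), the description (297) or an Ensembl name table (1631), and 9318 stayed without a name. Of features with the same name, that with the largest mean RPKM stood for the gene. Members and lists were chosen with earlier results of these data known. Results for 4 list genes are not reported here, and the lists of other TRP channels, of partners and of Schwann cells cover their remaining genes. Of 135 genes in 14 lists, 19 had no feature under their name and are not analysed here. KCNJ10 was taken from the feature named KIR1.2.

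Named genes are the members, and the lowest, highest and most abundant gene of each list (others too in some lists). The 5 features nearest TRPM1, some of the neighbours of members and a microRNA feature hosted by a member are also named. RefSeq of Sscrofa11.1 gave gene order only.

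Library totals were those that made exon model lengths whole, which held for 64.3% of 3000 genes used. Reads within 0.0001 of whole numbers, plus a small share of their size for rounding, resulted for 100% of 20862 features with a value above 0. Lengths up to 60000 bases were tried. For features above 0 in a single library, or with very many reads, a fit was thus likely whatever the reads. The share is no check of those features. As a check against RefSeq, 8 of 10 mitochondrial genes had the length given there or a whole fraction of it, and 6 had the length itself. Of the reads, 89.4% in R/r and 89.3% in r/r lay on features. These steps were tested on simulated data.

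Alternatives were pseudocounts of 0.1 and 1 RPKM, other minimums, thresholds and scalings, TPM, and Ensembl features alone. Intervals beyond 2-fold or beyond 0, counts of list genes under the alternatives, and the melanocyte list without KCNJ10 were added after seeing the data. Scripts ran under Python 3.11.15 with scipy 1.17.1, pandas 2.3.3 and numpy 2.4.6, and plots were drawn with matplotlib 3.10.9.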

Additional observations from a re-analysis of the deposited data

How the results depend on the processing

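No paired analysis was possible because each genotype had a single library. The number of members at least 2-fold lower (1) and higher (0) was equal under all 11 alternatives tried for it, and 0 of 30 member ratios changed sign. The log2 ratio of TRPM1 moved beyond its interval to -7.64 with a pseudocount of 0.1 and -4.55 with a pseudocount of 1, by construction, since its r/r value is below both. The other members stayed within their intervals, TRPM2 from -0.39 to -0.21, TRPM3 from -0.10 to -0.01, TRPM4 from 0.12 to 0.21, TRPM6 from 0.14 to 0.52 and TRPM7 from 0.03 to 0.11. No member had a second feature, so that alternative gave no value.

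Over all features, 360 lower and 291 higher changed with the threshold, to 1031 lower and 740 higher at 1.5-fold and to 73 lower and 57 higher at 4-fold. Dropping the minimum gave 752 lower and 731 higher, raising it to 5 RPKM gave 107 lower and 71 higher, and raising it to 10 RPKM gave 54 lower and 33 higher. These follow by construction. Adding 1 RPKM as pseudocount gave 183 lower and 134 higher, for which the cause was not tested. Counting only intervals that cleared 2-fold, a choice made after seeing the data, left 58 lower and 48 higher. The share that was lower ran from 49.9% under median scaling to 62.1% with a minimum of 10, against 55.3%.

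The melanocyte median of -1.75 became -2.50 and -2.17 with pseudocounts of 0.1 and 1, -2.54 when the minimum was 5, -1.50 without any, and -2.29 without KCNJ10, an alternative chosen after seeing the data; it lies between spread-out genes and shifts when a member enters or leaves. It rested on 15 genes as reported, on 14 with a minimum of 5, and on 16 with no minimum or either pseudocount. The neuron median of -0.88, from 1 gene, became 0.15 with no minimum, which let in all 6 genes of the list. Of 98 list medians under alternatives 6 changed sign, in the TRPM, partner and neuron lists. The numbers of list genes 2-fold apart, recomputed under these settings after seeing the data, went from 9 to 10 lower for melanocytes with either pseudocount, from 2 to 1 lower for bone with a minimum of 5, and from 0 to 1 lower for other TRP channels as TPM. With no minimum, 0 became 1 lower for other TRP channels and 1 higher for the retinal and neuron lists. Depth limits TRPM6 and TRPM8 most, and the size of the TRPM1 ratio.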
